A study of Mus musculus with 16 samples.

Results

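The immediate early genes described here were Fos, Fosb, Jun, Junb, Egr1, Nr4a1, Nr4a2, Atf3, Ier2 and Ier3, measured in mouse hearts after encounters with aggressor mice. Their probes were found by gene name in the array annotation, by a rule that uses no measured value. All 10 were on the array, through 11 probes on 20 spots, and all 10 were among the 22763 features tested. They are grouped as immediate early transcription factors, but Ier3 encodes a regulator of cell survival rather than a transcription factor, and Ier2 a nuclear regulator without a DNA-binding domain of its own.

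Gene expression was measured in hearts of C57BL/6 mice in a model of posttraumatic stress disorder, with 1 heart on each of 16 arrays and 4 hearts in each of 4 groups. Control mice sat in mesh boxes in a cage that held no aggressor. Mice of T1R1, T2R1 and T3R1 were exposed to aggressor mice for 1, 2 and 3 days and rested for 1 day afterwards. The labels place the controls in the arm of 2 days, state neither age nor sex, and give no genetic change in any group. Elsewhere the labels speak of exposures of more days; the durations here are those in the names of the groups. No heart was taken during an encounter, and each was sampled once.

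Immediate early genes are transcribed within minutes of a stimulus from factors already present in the cell, chiefly serum response factor with its ternary complex partners and the cAMP response element binding protein CREB. Their messenger RNAs are short-lived and their products, AP-1 dimers of Fos and Jun proteins, zinc finger proteins of the Egr family and orphan nuclear receptors of the Nr4a family, go on to set later genes. In the heart they are known to respond to adrenergic drive, stretch and ischaemia, and they also respond to the handling and excision of tissue.

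The promoters of the genes are shown first because the genes are known to share signal-responsive elements close to the start. No promoter window was used for Egr1 or Ier2, so the matches described below do not cover these genes. RefSeq promoter windows (GRCm38.p6), identified by symbol, were used for the other 8 of the 10 genes. The 120 bases before the annotated start are given 5′ to 3′ on the strand of the gene for 6 of them, 2 with TGACGT, 2 with the variant TGACGC, Jun with TGACATCA and Ier3 with none of these. Capitals mark these letters on either strand, so that ACGTCA in Atf3 is TGACGT on the opposite strand.
Fos (chr12:85473770-85473889, plus strand): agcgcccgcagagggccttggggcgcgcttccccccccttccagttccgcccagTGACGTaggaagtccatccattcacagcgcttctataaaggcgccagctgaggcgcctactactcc
Atf3 (chr1:191183334-191183453, minus strand): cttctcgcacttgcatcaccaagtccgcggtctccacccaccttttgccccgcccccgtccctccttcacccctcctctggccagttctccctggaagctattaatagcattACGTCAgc
Fosb (chr7:19310046-19310165, minus strand): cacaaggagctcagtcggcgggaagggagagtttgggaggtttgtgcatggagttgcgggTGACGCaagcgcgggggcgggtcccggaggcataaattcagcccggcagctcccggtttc
Junb (chr8:84978749-84978868, minus strand): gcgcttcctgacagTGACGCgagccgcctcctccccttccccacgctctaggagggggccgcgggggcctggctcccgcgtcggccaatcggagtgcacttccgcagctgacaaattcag
Jun (chr4:95052223-95052342, minus strand): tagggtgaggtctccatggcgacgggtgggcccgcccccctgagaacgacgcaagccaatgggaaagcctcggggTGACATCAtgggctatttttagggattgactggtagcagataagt
Ier3 (chr17:35821593-35821712, plus strand): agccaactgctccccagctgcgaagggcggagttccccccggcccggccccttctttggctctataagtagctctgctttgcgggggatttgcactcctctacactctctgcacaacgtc

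TGACGT is the core of the cAMP response element, and TGACATCA is the variant known from the Jun promoter. Over the 250 bases before the start, TGACGT or TGACGC was present on either strand in 6 of the 8 windows (Fos, Fosb, Junb, Nr4a1, Nr4a2 and Atf3) and in 11.9% of all 32851 windows of that length. TGACGT alone was present in Fos and Atf3, at 66 and 8 bases before the start, and in 6.47% of all windows. TGACGC was present in Fosb, Junb, Nr4a1 and Nr4a2 and in 6.12% of all windows. Nr4a1 held 4 copies, beginning 234, 214, 70 and 41 bases before the start, and Nr4a2 held 3. TGACATCA began 45 bases before the start of Jun, 1 of 8 windows, against 2.93% of all windows. The AP-1 letters TGANTCA were in 0 of 8 windows and in 6.75% of all, and the CArG box bound by serum response factor was in 0 of 8 and in 1.47% of all. A match describes letters and not binding, and elements farther than 250 bases from the start were outside the search.

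The arrays fell on 2 slides, scanned separately. Control and T3R1 hearts were on slide 1 and T1R1 and T2R1 hearts on slide 2, so that T3R1 against control and T2R1 against T1R1 lie within a slide. In the other 4 comparisons slide and exposure cannot be told apart. Control replicate 1 was the brightest array, with a 75th percentile of 547.5 scanner units, against 256.9 to 272.8 in the other controls and 283.4 to 406.6 in the exposed hearts. Between 46.5% and 67.1% of spots were well above background on an array. The representing probe of every immediate early gene was well above background on all 16 arrays, and none of their spots was saturated. Levels below are log2 signals relative to the 75th percentile of the same array, so that 0 is the brightness at that percentile. Levels of different genes are not compared, since each probe has its own brightness. In whole hearts, fewer cells of a type and less RNA per cell cannot be told apart.

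None of the 10 immediate early genes passed the threshold in any exposure against control. Of all features, 9.85% passed in T1R1, 18.4% in T2R1 and 0.694% in T3R1. For every gene but Fosb the SD between hearts of a group exceeded the SD of the 4 group means. The same is true of the typical feature, as a median of 59.2% of variance lay within groups over all features. The highest level of each of the 10 genes was in the same heart, T2R1 replicate 2. The calls that did pass were Fosb and Jun, lower in T3R1 than in T2R1, and Nr4a2, higher in T3R1 than in T1R1. Each of these compares hearts on different slides.

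**Figure D1:**
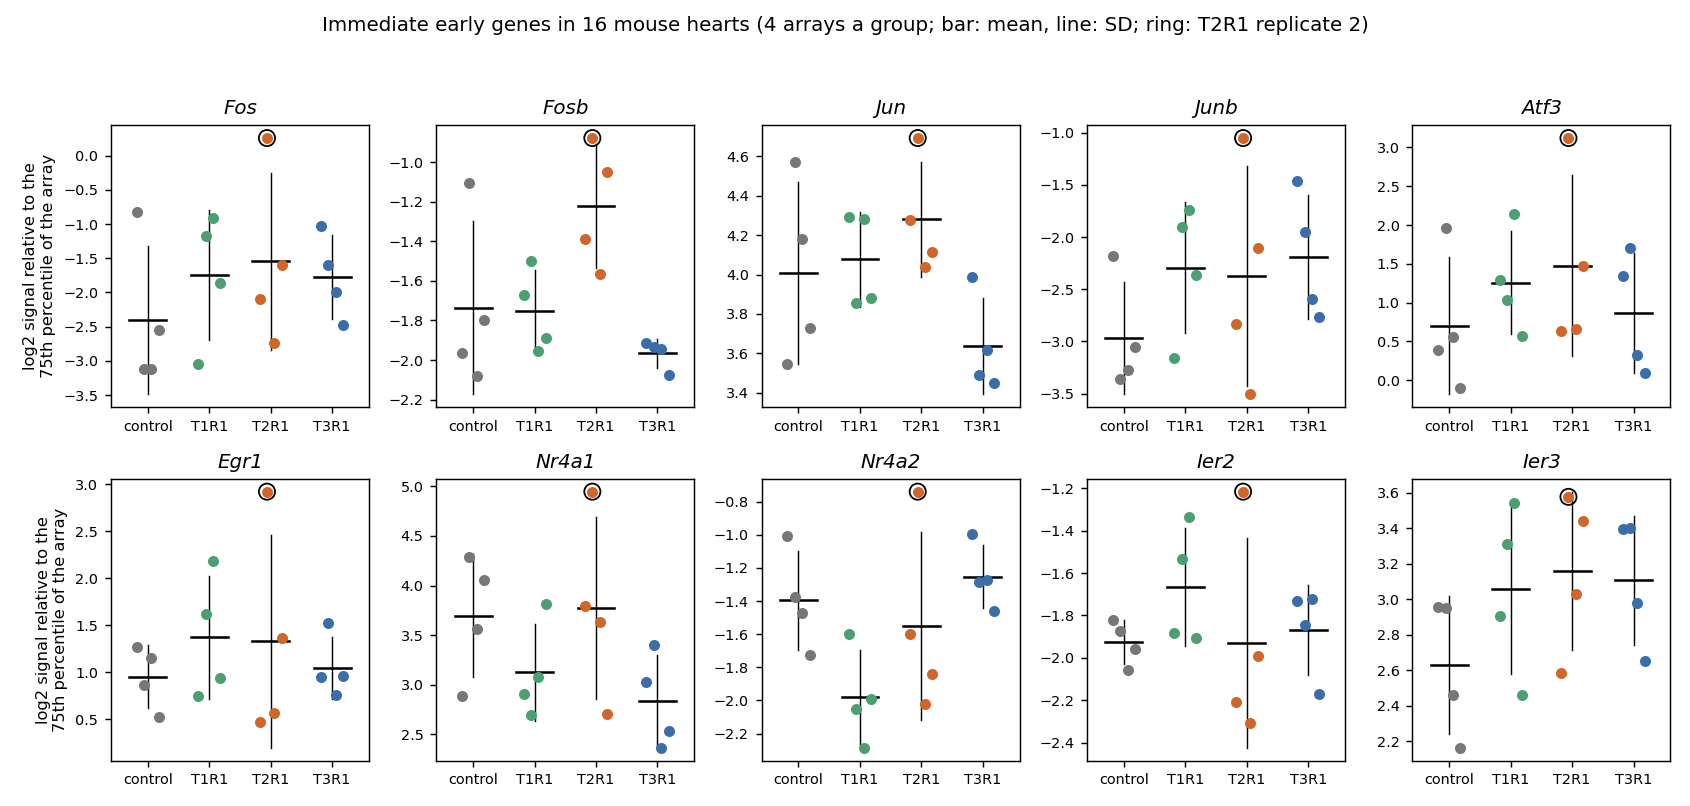
Level of each immediate early gene on each array, as log2 signal relative to the 75th percentile of the array (vertical axis), for control, T1R1, T2R1 and T3R1 (horizontal axis, 4 arrays each); bars are means, lines are SD, and the ring marks T2R1 replicate 2. The ringed heart is the highest of 16 in all 10 panels, and its Fos level was 0.26.

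Fos encodes the AP-1 subunit that is the classical marker of recent stimulation. Its probe (mm9 chr12:86817900-86817959, plus strand) is spotted 10 times on the array, and 5 of its spots over the 16 arrays were left out as outliers. Fos was at -0.83, -3.12, -3.12 and -2.55 in control hearts, at -3.04, -1.17, -0.91 and -1.86 in T1R1, at -2.09, 0.26, -2.74 and -1.60 in T2R1 and at -1.03, -1.60, -2.0 and -2.48 in T3R1. All groups overlapped, and T2R1 replicate 2 and control replicate 1 were the highest and second highest of all. From the lowest to the highest array Fos differed 10.4-fold. The 10 spots of 1 array differed by a median SD of 0.14 (range 0.07 to 0.39), which covers repeat spots of 1 hybridisation only. Between hearts of a group, with labelling and hybridisation included, the SD was 1.01. Fos was 0.66 ± 0.66 higher in T1R1 than in control, 0.86 ± 0.66 in T2R1 and 0.63 ± 0.66 in T3R1 (log2 fold change ± SE, limma adjusted p = 0.568, 0.415 and 0.593). The 95% interval for T3R1 against control, the comparison within a slide, ran from -0.79 to 2.04 on the log2 scale and so included both directions.

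Junb encodes a Jun family subunit of AP-1 (probe mm9 chr8:87501881-87501940, minus strand). It was at -2.18, -3.36, -3.28 and -3.05 in control hearts, at -3.15, -1.91, -1.75 and -2.36 in T1R1, at -2.83, -1.05, -3.50 and -2.10 in T2R1 and at -1.46, -1.96, -2.59 and -2.76 in T3R1. T2R1 held both the highest and the lowest heart of the 16. Junb was 0.77 ± 0.48 higher in T3R1 than in control (limma adjusted p = 0.347), with 3 of the 4 control hearts below every T3R1 heart and control replicate 1 among them.

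Atf3 encodes a stress-induced factor of the ATF family that pairs with Jun proteins (probe mm9 chr1:192994547-192994606, minus strand). It was at 0.39, 1.96, 0.56 and -0.10 in control hearts, at 1.29, 1.03, 2.15 and 0.57 in T1R1, at 0.64, 3.12, 0.66 and 1.48 in T2R1 and at 1.34, 1.70, 0.33 and 0.09 in T3R1. The range was 9.33-fold over the arrays and the groups overlapped throughout. Atf3 averaged 1.47 ± 1.16 in T2R1 and 0.70 ± 0.89 in control (SD, n = 4 each), a log2 fold change of 0.77 ± 0.58 (limma adjusted p = 0.407).

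Fosb, whose product is a Fos family subunit of AP-1, was the gene with the clearest difference between groups (probe mm9 chr7:19888168-19888227, minus strand). It was at -1.97, -1.11, -2.08 and -1.80 in control hearts, at -1.67, -1.50, -1.95 and -1.89 in T1R1, at -1.39, -0.88, -1.57 and -1.05 in T2R1 and at -1.92, -1.93, -1.94 and -2.07 in T3R1. Every T3R1 heart was below every T2R1 heart, and the T3R1 hearts lay within 0.16 of each other. Fosb was lower in T3R1 than in T2R1 by a log2 fold change of -0.75 ± 0.20 (limma adjusted p = 0.0122). In all 8 fits that left out 1 heart of the 2 groups it stayed past the threshold, with log2 fold changes between -0.63 and -0.86, -0.63 without T2R1 replicate 2. Scaling arrays by their median took it to -0.39 (adjusted p = 0.174), and quantile normalization to -0.58 (adjusted p = 0.0522). Within a slide Fosb was 0.53 ± 0.20 higher in T2R1 than in T1R1 at an unadjusted p of 0.0164, which adjustment over all features took to 0.636.

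Against control, Fosb in T2R1 was 0.52 ± 0.20 higher (limma adjusted p = 0.0842). Control replicate 2, at -1.11, was the only control heart inside the T2R1 range. Without that heart the log2 fold change was 0.73 (adjusted p = 0.00671), the only 1 of 8 fits leaving out a heart of the 2 groups to pass. The other 7 gave 0.40 to 0.63, with adjusted p from 0.0564 to 0.225. Median scaling gave 0.13 (adjusted p = 0.638) and the authors' deposited values 0.27 (adjusted p = 0.21). In T3R1 Fosb was at a log2 fold change of -0.23 ± 0.20 against control (adjusted p = 0.503). Fosb was also the only one of the 10 genes past the threshold of the F test over the 4 groups (adjusted p = 0.0468), where 26.9% of all features passed and 2 of the 10 genes had an unadjusted p under 0.05. That call remained without control replicates 1, 2 or 3, T1R1 replicate 2 or T2R1 replicate 3, and was lost without each of the other 11 hearts, with adjusted p between 0.0572 and 0.139.

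Jun, the principal partner of Fos proteins in AP-1 (probe mm9 chr4:94716928-94716987, minus strand), was at 3.55, 4.57, 4.18 and 3.73 in control hearts, at 4.29, 3.86, 4.28 and 3.88 in T1R1, at 4.27, 4.69, 4.04 and 4.12 in T2R1 and at 3.99, 3.49, 3.62 and 3.45 in T3R1. The T3R1 hearts were all below the T2R1 hearts. The log2 fold change of T3R1 over T2R1 was -0.64 ± 0.22 (limma adjusted p = 0.0395). This call was lost without T2R1 replicate 1, 2 or 4 or T3R1 replicate 2, 3 or 4, with log2 fold changes from -0.51 to -0.70 and adjusted p from 0.0546 to 0.111. It was also lost with no filter on dim probes (adjusted p = 0.0646) and with median scaling, at -0.29 (adjusted p = 0.332). Within a slide, Jun was at -0.37 ± 0.22 in T3R1 against control (adjusted p = 0.319).

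The count of 2 called genes among 10 in T3R1 against T2R1 stands beside 26.9% of all features called in that comparison, and the 2 whose hearts did not overlap stand beside 37.9%. Median scaling moved the median log2 fold change of all features to 0.26 from -0.09 in this comparison. Relative to that median, Fosb was at -0.65 and Jun at -0.55; these are equal under both scalings by construction, since each shifts all genes of an array alike. Neutrophil genes differed the same way: of 6 tested of 8 listed, 3 were lower in T3R1 than in T2R1 and none higher, with a median log2 fold change of -1.43. The mean level of the neutrophil genes lay between -1.21 and 0.35 in T3R1 and between 0.51 and 1.58 in T2R1 (log2, relative to its mean over 16 arrays). Of the T cell genes 2 of 4 were lower. In the other direction, 3 of 6 fibroblast, 3 of 6 macrophage, 3 of 5 smooth muscle and 2 of 8 nerve and Schwann cell genes were higher, and none lower. The part of these cell types in the Fosb and Jun values was not tested.

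**Figure D2:**
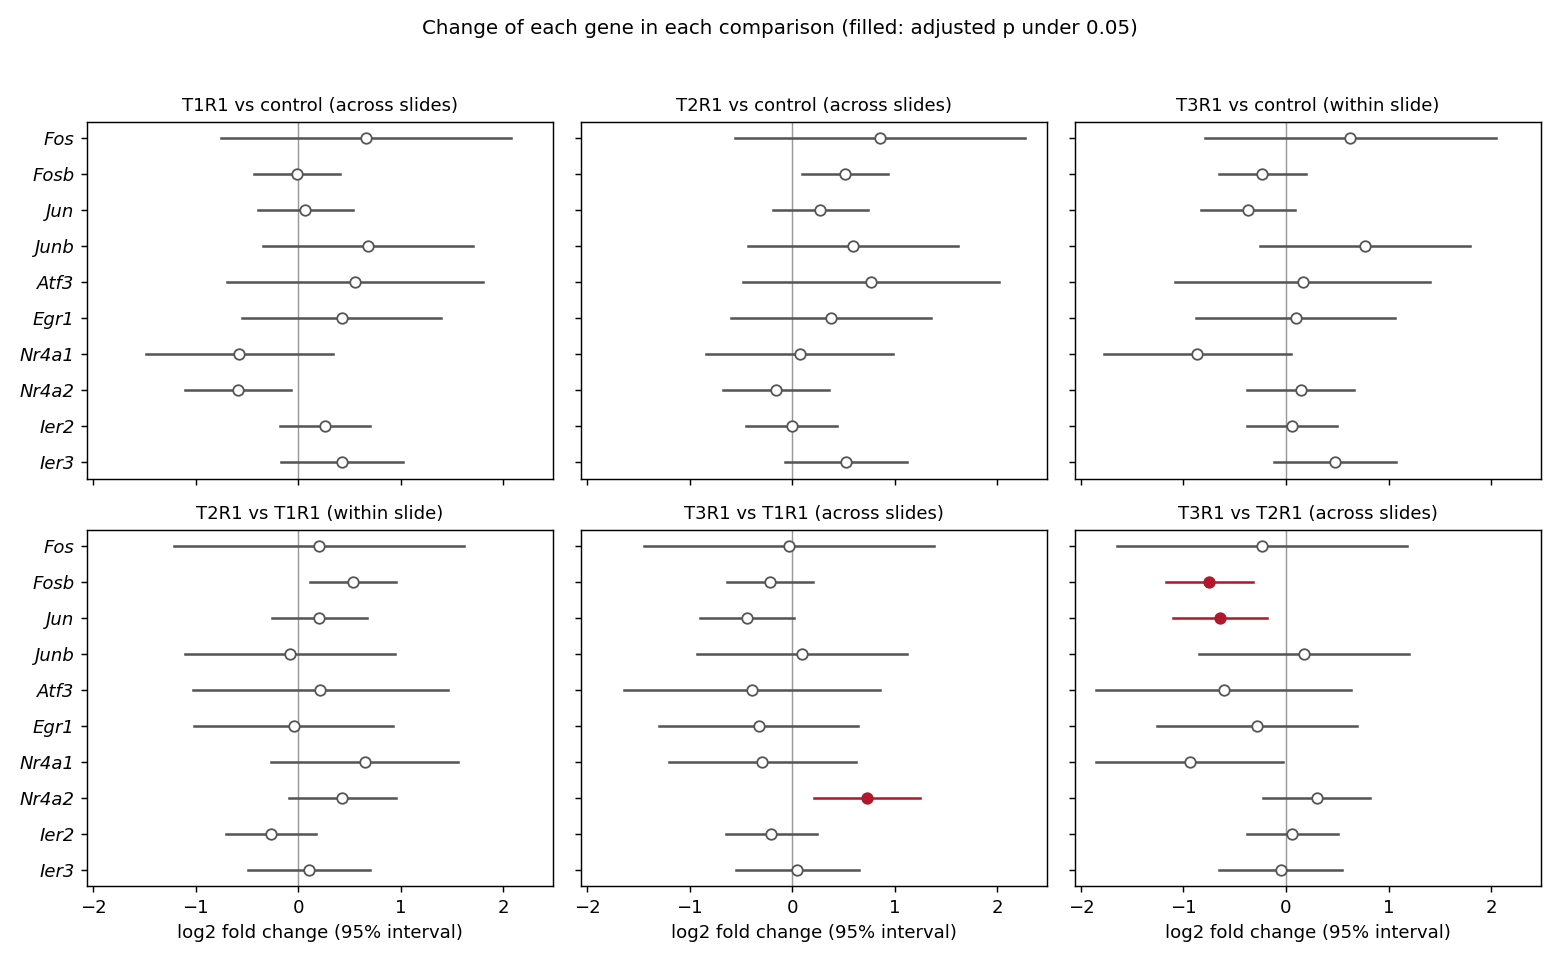
Log2 fold change of each gene (points) with its 95% interval (lines) in 6 comparisons, each over 4 against 4 hearts, titled by whether the groups shared a slide; filled points have a limma adjusted p under 0.05. Fosb and Jun in T3R1 against T2R1 and Nr4a2 in T3R1 against T1R1 are filled, and no gene is filled in the panels against control.

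Nr4a1 encodes Nur77, an orphan nuclear receptor that is induced without a ligand (probe mm9 chr15:101105071-101105130, plus strand). It was at 2.88, 4.29, 3.56 and 4.06 in control hearts, at 2.90, 2.69, 3.08 and 3.82 in T1R1, at 3.79, 4.95, 3.64 and 2.71 in T2R1 and at 3.03, 3.40, 2.36 and 2.53 in T3R1. Control replicates 2, 3 and 4 were above all T3R1 hearts, and control replicate 1 lay among them. The log2 fold change of T3R1 over control was -0.87 ± 0.43, the largest of the 10 genes in that comparison (limma adjusted p = 0.245), and -0.94 ± 0.43 over T2R1 (adjusted p = 0.116). Leaving out control replicate 1, the brightest array, together with T2R1 replicate 2 took the change over control to -1.14 (adjusted p = 0.0263), in a fit that called 28.6% of all features in this comparison. Without T2R1 replicate 4, the only T2R1 heart within the T3R1 range, the change over T2R1 was -1.29 (adjusted p = 0.0368). The other 7 fits that left out a heart of these groups did not pass, with log2 fold changes from -0.55 to -1.13 and adjusted p from 0.0911 to 0.318.

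Nr4a2 encodes Nurr1, a receptor of the same family, and was read by 2 probes that did not give the same result. The brighter probe (mm9 chr2:56960699-56960758, minus strand) was at -1.01, -1.38, -1.47 and -1.73 in control hearts, at -1.60, -2.05, -2.29 and -1.99 in T1R1, at -1.60, -0.74, -2.02 and -1.84 in T2R1 and at -1.0, -1.28, -1.27 and -1.46 in T3R1. On this probe every T3R1 heart was above every T1R1 heart, with a log2 fold change of 0.73 ± 0.24 (limma adjusted p = 0.0432). The call was lost without T1R1 replicate 2, 3 or 4 or T3R1 replicate 1, 2 or 3, with log2 fold changes from 0.63 to 0.74 and adjusted p from 0.0751 to 0.119.

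The other Nr4a2 probe (mm9 chr2:56959637-56959696, minus strand) was at -2.49, -2.61, -2.66 and -2.79 in control hearts, at -2.48, -2.87, -2.96 and -2.79 in T1R1, at -2.36, -2.0, -2.34 and -2.28 in T2R1 and at -2.81, -2.82, -2.62 and -2.75 in T3R1. Here the T2R1 hearts stood above all other hearts. Within slide 2, T2R1 was higher than T1R1 on this probe by 0.53 ± 0.12 at an unadjusted p of 0.000407 (limma adjusted p = 0.548), with no overlap. T3R1 differed from T1R1 by 0.03 ± 0.12 (limma adjusted p = 0.894). With every probe tested on its own, this one was called higher in T2R1 than in control (0.39 ± 0.12, adjusted p = 0.0296) and lower in T3R1 than in T2R1 (-0.50 ± 0.12, adjusted p = 0.00569). The direction of Nr4a2 between T3R1 and T2R1 therefore depended on the probe, since the brighter one gave 0.30 ± 0.24 (adjusted p = 0.388). Without T2R1 replicate 2 the brighter probe was called higher in T3R1 than in T2R1 (0.57, adjusted p = 0.0425). In T3R1 against T1R1, 5 of 6 fibroblast, 4 of 6 macrophage, 3 of 5 smooth muscle, 3 of 8 nerve and Schwann cell and 2 of 7 adipocyte genes were also higher, while 1 each of the neutrophil, T cell, thymus and endothelium genes was lower. The mean fibroblast level lay between 0.65 and 0.85 in T3R1 and between -0.71 and -0.35 in T1R1, and the part of these cell types in the Nr4a2 value was not tested. The 1 call among 10 genes in T3R1 against T1R1 stands beside 22.9% of all features called and 26.1% whose hearts did not overlap.

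Egr1 encodes a zinc finger factor of growth and stress responses (probe mm9 chr18:35024395-35024454, plus strand). It was at 1.27, 0.87, 1.15 and 0.52 in control hearts, at 0.75, 1.62, 2.18 and 0.94 in T1R1, at 0.47, 2.92, 0.56 and 1.36 in T2R1 and at 0.94, 1.52, 0.76 and 0.96 in T3R1. T2R1 held the highest and the lowest of the 16 hearts. The groups overlapped, and the log2 fold change over control was 0.42 ± 0.45 in T1R1, 0.38 ± 0.45 in T2R1 and 0.09 ± 0.45 in T3R1 (limma adjusted p = 0.599, 0.625 and 0.926). The share of Egr1 variance that lay within groups was 91.8%, the most of the 10 genes.

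Ier2 (probe mm9 chr8:87186214-87186273, minus strand) varied least over the arrays, 2.13-fold. It ranged from -2.06 to -1.82 in control hearts, from -1.91 to -1.33 in T1R1, from -2.31 to -1.22 in T2R1 and from -2.17 to -1.72 in T3R1. Its log2 fold changes over control were between -0.00 and 0.26.

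Ier3 (probe mm9 chr17:35959528-35959587, plus strand) was at 2.95, 2.95, 2.46 and 2.16 in control hearts, at 2.90, 3.31, 3.54 and 2.46 in T1R1, at 2.58, 3.58, 3.03 and 3.44 in T2R1 and at 3.40, 3.40, 2.98 and 2.65 in T3R1. Each exposed group reached above the control range and also overlapped it. The log2 fold change over control was 0.42 ± 0.28 in T1R1, 0.53 ± 0.28 in T2R1 and 0.48 ± 0.28 in T3R1 (limma adjusted p = 0.362, 0.218 and 0.322).

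Against control, the number of genes past the limma threshold was 0 of 10 in T1R1, where 9.85% of all features passed, 0 of 10 in T2R1, where 18.4% passed, and 0 of 10 in T3R1, where 0.694% passed. At an unadjusted p under 0.05 these counts were 1 (Nr4a2), 1 (Fosb) and 0, beside 25.9%, 30.9% and 22.4% of all features. The arrays of none of the 10 genes separated in these comparisons, against 13.9%, 24.5% and 7.6% of all features. Within slide 2, T2R1 against T1R1 gave 0 of 10 calls and 0% of all features, and 1 gene (Fosb) at an unadjusted p under 0.05, beside 7.83% of all features. On their representing probes none of the 10 separated, against 6.96% of all features. Most log2 fold changes over control were positive, in 7, 8 and 7 of 10 genes, with medians of 0.34 in T1R1, 0.45 in T2R1 and 0.12 in T3R1, beside -0.01, 0.02 and -0.08 over all features. Median scaling turned the T1R1 median to -0.09, beside -0.44 over all features, and left 0.06 in T2R1 and 0.09 in T3R1. The exposures share their control hearts, so these medians are not independent of each other. They also share control replicate 1, and T2R1 includes replicate 2: without both hearts, the T2R1 changes ranged from -0.59 in Nr4a1 to 0.79 in Fos.

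The spread between hearts of a group was larger for each of these genes than for the median feature. A median of 78.4% of their variance lay within groups, beside 59.2% over all features. The within-group SD was 1.01 for Fos, 0.89 for Atf3, 0.73 for Junb, 0.70 for Egr1 and 0.65 for Nr4a1, at the 98.4th, 97.6th, 95.5th, 94.7th and 93.7th percentile of all features. Nr4a2, Jun, Ier2 and Fosb lay lower, between the 63.5th and 75th percentile, and Ier3 at the 81.5th. These SDs are pooled over the 4 groups and include T2R1 replicate 2. By group, the SD of Egr1 was 0.33 in control, 0.65 in T1R1, 1.135 in T2R1 and 0.33 in T3R1. That of Fos was 1.085, 0.95, 1.29 and 0.61 in the same order. For Fos, with 4 hearts a group, the limma standard error of a log2 fold change was 0.66, after its variance was moderated by that of all features.

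**Figure D3:**
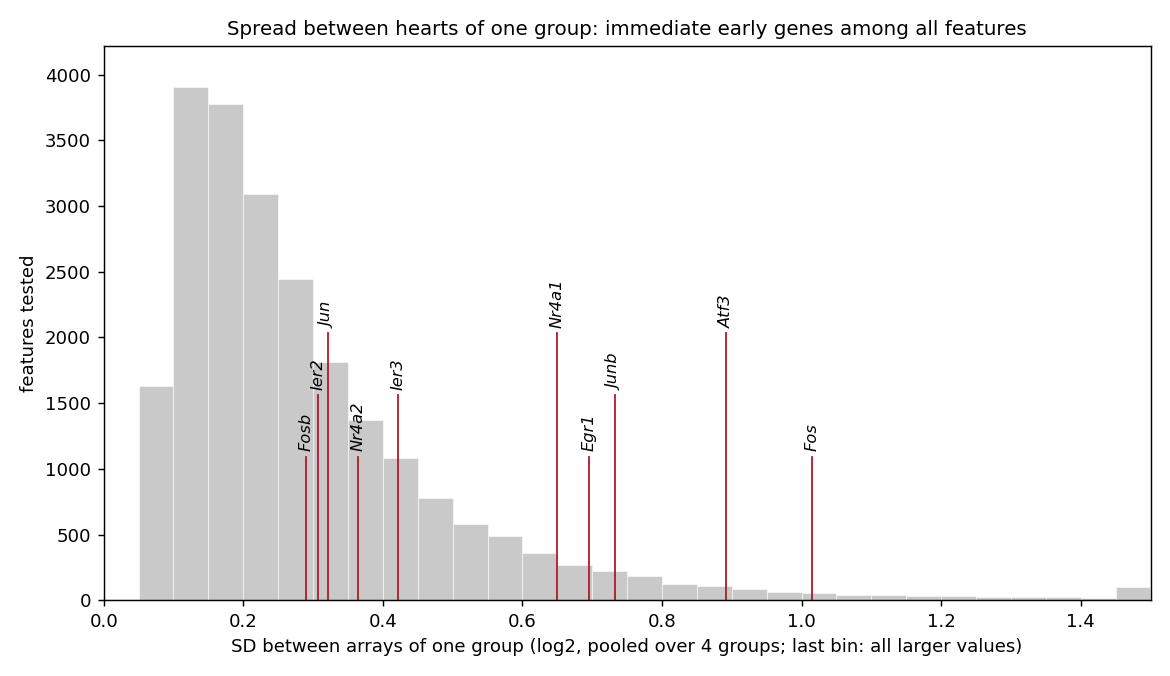
Number of features tested (bars) by the SD between arrays of 1 group on the log2 scale, pooled over the 4 groups, with larger values in the last bin; red lines mark the immediate early genes. Fos at 1.01 and Atf3 at 0.89 lie in the right tail, and Fosb at 0.29 lies nearest the bulk.

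T2R1 replicate 2 was the highest of 16 hearts for 10 of 10 genes, where 3.53% of all features had their highest value in it. It exceeded the mean of the other T2R1 hearts by a median of 1.33 on the log2 scale (range 0.46 to 2.40), beside -0.01 over all features. The largest excess was that of Fos. With normexp background correction or quantile normalization the count stayed at 10 of 10, on the authors' deposited values it was 9, and with median scaling 5. The median excess over the other T2R1 hearts was between 0.85 and 1.42 under these 4 alternatives. Its brightness of 315.6 scanner units at the 75th percentile lay among those of the other T2R1 hearts. In the same heart the mean of the heat shock and handling list was highest of the 16 (0.50), but its genes differed. Hspa1a was at 2.46, against -0.16, 0.51 and 1.51 in the other T2R1 hearts. Hspa8 was at 8.73, below the other T2R1 hearts at 8.80, 8.82 and 8.88. The neutrophil list was also highest in this heart (1.58, against 0.51 to 1.24 in the other T2R1 hearts). Cardiomyocyte genes were at 0.09, between 0.01 and 0.20 in the others. Of 8 lists of related pathway genes 6 were highest in this heart, and of 15 cell type lists 1, that of neutrophils. The part of sampling, of neutrophils and of the exposure itself in this heart was not tested.

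Other hearts differed less. T3R1 replicate 4 was the lowest of its group for 8 genes and T1R1 replicate 3 the highest of its group for 6. Among the 45 pairs of the 10 genes, the median correlation of deviations from the group means was 0.49, and 43 pairs were positive. Without T2R1 replicate 2 the median was 0.16 and 32 pairs were positive. Over all 16 arrays the median Pearson correlation was 0.33 and the median Spearman correlation 0.29, with 0.38 within slide 1, 0.51 within slide 2 and -0.03 within slide 2 without T2R1 replicate 2. The correlations describe 16 arrays that share slides and scaling, and much of the size of the medians rests on that heart. Single pairs differed. Without it the correlation of deviations was 0.94 for Fos and Junb and 0.79 for Atf3 and Ier3, but -0.35 for Fos and Jun.

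**Figure D4:**
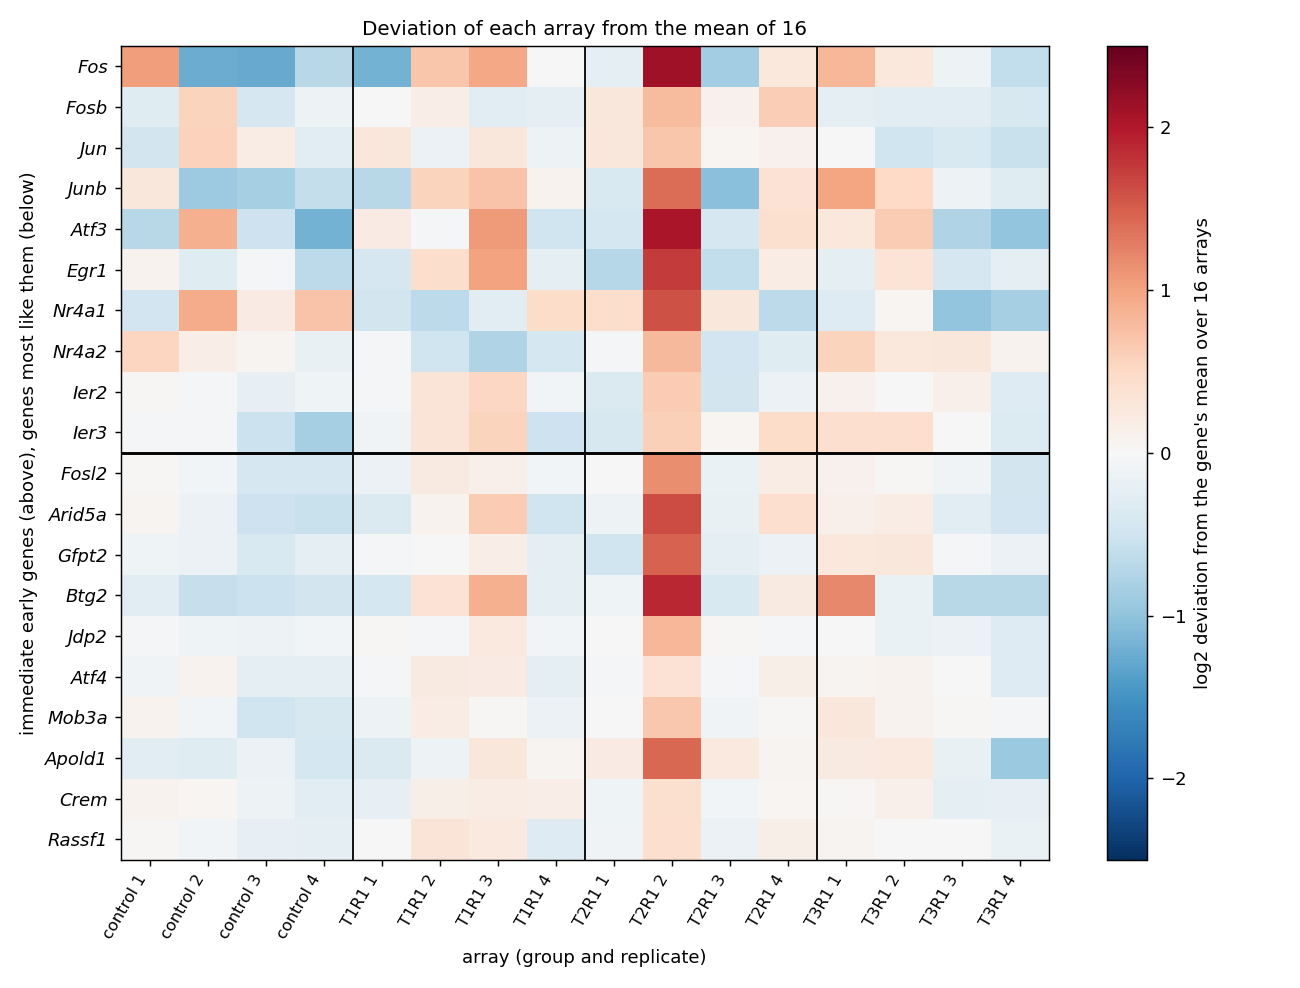
Deviation of each array (columns, 4 a group) from the mean of a gene over 16 arrays, on a log2 colour scale from blue (below) to red (above), for the 10 immediate early genes (upper rows) and the 10 genes most like their mean profile (lower rows). The column of T2R1 replicate 2 is red throughout. The level of Fos in that heart was 0.26.

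The genes whose profile over 16 arrays was most like the mean of the 10 were taken from 14967 named genes. Fosl2, a Fos family subunit of AP-1, had a correlation of 0.95 with that mean, and 0.86 without T2R1 replicate 2. It was at 1.66, 2.84, 1.5 and 1.87 in T2R1, beside 1.70, 1.61, 1.25 and 1.25 in control. Arid5a, which encodes an RNA-binding protein that stabilises inflammatory transcripts, also reached 0.95 (0.87 without that heart). The others were Gfpt2 (0.89), Btg2 (0.87), the AP-1 repressor Jdp2 (0.85), the stress response factor Atf4 (0.85), Mob3a (0.83), Apold1 (0.83), the cAMP-responsive modulator Crem (0.83) and Rassf1 (0.81). Without T2R1 replicate 2, Atf4 kept 0.86 and Crem 0.75, and Jdp2 had 0.51. The heat shock gene Hspa1a had a correlation of 0.76, Myc 0.71, Egr2 0.68 and Fosl1 0.67. The Fosl1 probe was well above background on only 10 of 16 arrays, with 1 of 4 control and 1 of 4 T1R1 hearts among them. Dusp1, an immediate early phosphatase that shuts off MAP kinases, had 0.03.

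The remaining genes of the pathway were taken as lists, and T3R1 against control gave no call in any of the 8, beside 0.694% of all features. Against control, 9.85% of all features were called in T1R1 and 18.4% in T2R1. The shares were 0% in T2R1 against T1R1, 22.9% in T3R1 against T1R1 and 26.9% in T3R1 against T2R1. The counts of all 8 lists stand beside these shares. Of 13 other AP-1 subunits and partners none passed in any comparison of 2 groups. Atf2, a CRE-binding partner of Jun named here after its values were seen, was at -0.29 ± 0.07 in T3R1 against control (limma adjusted p = 0.0619). Of the 6 other Egr and Nr4a family genes and co-repressors, 3 were bright enough to test and none passed. Of these Egr2 was at 0.37, 0.23, 0.10 and -0.44 in T3R1 and at 0.42, -1.91, -1.97 and -2.64 in control hearts, with control replicate 1 above all T3R1 hearts and the other controls below them.

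Of 15 other immediate early transcription factors and regulators, 2 passed in T2R1 against control, both higher, beside 18.4% of all features called, and 3 in T3R1 against T2R1, all lower, beside 26.9%. Csrnp1, an AXIN1-induced nuclear protein, rose by 0.86 ± 0.24 (limma adjusted p = 0.0245), and Per1, a clock gene that CREB and glucocorticoids induce, rose by 0.76 ± 0.22 (adjusted p = 0.0249). In T3R1 against T2R1 Per1 was lower (-0.83 ± 0.22, adjusted p = 0.0122), as were the flow-responsive factor Klf2 (-0.71 ± 0.17, adjusted p = 0.0082) and Klf4 (-0.72 ± 0.21, adjusted p = 0.0216). Klf2 and Klf4 were also lower in T3R1 than in T1R1, at -0.63 ± 0.17 and -0.76 ± 0.21. Klf2 lay between 2.73 and 3.01 in T3R1 and between 3.1 and 3.82 in T2R1, with no overlap. These comparisons cross slides, as do all the list calls that follow.

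Among 20 upstream genes of serum response, CREB and MAP kinase signalling, Mapk8, which encodes the Jun kinase JNK1, was higher in T1R1 than in control (0.75 ± 0.21, limma adjusted p = 0.0368) and in T2R1 than in control (1.12 ± 0.21, adjusted p = 0.00246), and lower in T3R1 than in T2R1 (-0.95 ± 0.21, adjusted p = 0.00427). The serum response factor coactivator Mrtfb was lower than control in T1R1 (-0.32 ± 0.08) and T2R1 (-0.44 ± 0.08). Srf itself was lower in T3R1 than in T2R1 (-0.32 ± 0.11, adjusted p = 0.0448), while the kinases Rps6ka1 and Map2k1 were higher (0.60 ± 0.20 and 0.40 ± 0.14).

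Of 17 tested feedback inhibitors and mRNA decay factors, Zfp36l1, which encodes a protein that degrades AU-rich transcripts, was lower in T2R1 than in control (-0.51 ± 0.12, limma adjusted p = 0.0113). Sik1, a CREB-induced kinase that inhibits CREB coactivators, was lower in T3R1 than in T2R1 (-0.58 ± 0.20, adjusted p = 0.0476). Of 24 immediate early genes for secreted and effector proteins none passed in any comparison of 2 groups, beside 0% to 26.9% of all features. Of 14 tested genes known as AP-1 or Egr1 targets, Spp1 was higher in T3R1 than in T1R1 (4.17 ± 1.31, adjusted p = 0.0341), its probe being well above background in 4 of 4 T3R1 and 3 of 4 T1R1 hearts. Of 9 heat shock and handling genes, Hspe1 was lower in T1R1 than in control (-0.31 ± 0.09, adjusted p = 0.0484), and Hspa8 and Hspd1 were lower in T3R1 than in T2R1 (-0.37 ± 0.13 and -0.24 ± 0.08).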

How the data were processed

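RNA of 16 hearts was read on 1-colour Agilent arrays. The processed intensity values were made by the authors with Feature Extraction 10.7.3.1, with the background subtracted and no scaling between arrays, per the file headers; other columns hold flags. The deposited value table holds log2 values and was an alternative; the sources used here do not give the authors' steps. Outlier spots were left out, each array's 75th percentile of log2 values was subtracted, spots of a probe were averaged, and 31390 of 55681 probes were kept, those flagged well above background throughout 1 or more groups. Symbols were updated through RefSeq accessions (26762 probes). Each symbol was represented by its probe of highest mean. One linear model over 4 groups was fitted with limma 3.58.1 (R 4.3.3; 12 residual and 2.26 prior degrees of freedom; 102 missing values), with two-sided p values adjusted by Benjamini-Hochberg over 22763 features and a threshold of 0.05. The number of arrays limits the precision. The p values set group differences against the spread between these hearts. The labels do not say whether hearts came from separate cages, and hearts that shared a cage would not be independent replicates of an exposure.

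The genes and lists were chosen with earlier results of these data known. Named genes are the 10 members, up to 4 genes of a list with the smallest p past the threshold, the 10 genes most like the members, and a fixed set that includes Fosl1, Egr2, Myc, Dusp1 and Hspa1a. Dispersion, correlations and motif matches are descriptions. On data simulated for T3R1 against control over 22763 features, 24% of log2 changes of 0.5, 68.3% of changes of 1 and 93.2% of changes of 2 were recovered, and 5.65% of calls were false. The changes were placed in features drawn from all, whose median within-group SD was 0.23, beside 0.54 for the 10 genes. Simulated noise was drawn independently for each feature and array. The rates therefore do not cover deviations shared by many genes of 1 heart, such as control replicate 1. Recovery for the 10 genes themselves was not measured. Alternatives covered background correction, scaling, the deposited values, the filter, the probe rule, the variance model, array weights, the replicate block, the samples fitted and leaving out each array; 2 were added after the data were seen (within slide; without control replicate 1 and T2R1 replicate 2).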

Additional observations from a re-analysis of the deposited data

How the results depend on the processing

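Numbers of the 10 genes past the threshold changed as follows. Median scaling gave 1 in T1R1 against control (Nr4a2) and 0 in T3R1 against T2R1. In T2R1 against control there was 1 at an adjusted p under 0.1 (Fosb), 2 with array weights (Fosb, Ier3) and 1 with the other Nr4a2 probe (0.39). In T3R1 against control 1 (Nr4a1) passed with array weights, and 1 without both control replicate 1 and T2R1 replicate 2. In T3R1 against T1R1 array weights, no filter on dim probes, the mean of the probes of a gene and the other Nr4a2 probe each left 0. In T3R1 against T2R1 no filter and quantile normalization each left 1, and the other Nr4a2 probe gave -0.50, the opposite direction. The F test gave 0 with no filter, 0 with quantile normalization and 2 with the other Nr4a2 probe. The count of 1 hides different genes: it was Nr4a2 in place of Fosb with the authors' deposited values, with median scaling and without T2R1 replicate 2. Leaving out each array in turn gave 0 to 1 in T2R1 against control, 0 to 1 in T3R1 against T1R1, 1 to 2 in T3R1 against T2R1, 0 to 1 in the F test and 0 elsewhere. The replicate numbers do not pair the hearts (9 of 24 same-number pairs correlated above 0.1, and 5 of 16 arrays correlated best with their own number); with the replicate block T2R1 against control gave 1 call (Fosb), and no other count changed.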

Other observations

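Control replicate 1 split the immediate early genes. It was 2nd of 16 hearts for Fos and 3rd for Nr4a2, at -0.83 and -1.01, but 14th for Fosb and Jun, 13th for Atf3 and 12th for Nr4a1. Genes outside the list that were also high in it were Egr2 (0.42, against -1.91, -1.97 and -2.64 in the other controls) and Myc (-0.62, against -2.87, -2.33 and -2.55). This heart was also the brightest array, at 547.5 scanner units at the 75th percentile. It stood apart from the other controls in some cell type markers, and its mean cardiomyocyte level was the lowest of 16 (-0.61). Its fibroblast and macrophage levels were both 0.55, against -0.53 to -0.49 and -0.55 to -0.22 in the other controls. In T3R1 hearts these levels were 0.65 to 0.85 and 0.33 to 0.63. Its adipocyte level was 2.14, with control replicate 4 at 1.62. Its B cell level was 2.13, with control replicate 4 at 0.71 and T1R1 replicate 1 at 2.24. Spp1 was at 1.66, against -5.39 to -4.36 in the other controls. The Spp1 probe was well above background in only 1 of 4 control hearts, so the size of this gap is uncertain. With all hearts, Fos was 0.63 ± 0.66 and Junb 0.77 ± 0.48 higher in T3R1 than in control (limma adjusted p = 0.593 and 0.347). Without this control, which is high for Fos, and T2R1 replicate 2, the values were 1.15 ± 0.48 and 1.04 ± 0.40 (adjusted p = 0.0915 and 0.0728), in a fit that called 28.6% of all features, against 0.694% with all hearts.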
